A study of Rattus norvegicus with 6 samples.

Results

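The miRNAs described here come from a cluster of hairpins inside Clcn5, a gene of the rat X chromosome. They were chosen by position, as the listed mature products of miR-362, miR-532, miR-500, miR-501, miR-188 and miR-660, and the cluster was picked because miR-362-3p had stood out in the comparison of preconditioned with control samples. Of the 9 listed names, 8 were measured among the 763 mature miRNAs of the table, and miR-660-5p was not analysed here. The values of miR-362-3p between the groups are therefore given as a description without a test. The same holds for the other members, since they are read on the same contrast.

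Serum exosomes, the small vesicles that cells shed into blood, were obtained from male Sprague-Dawley rats of 9 to 10 weeks and 250 to 280 g, all anesthetized with pentobarbital. In the IPC group (ischemic preconditioning, 3 samples) the left anterior descending coronary artery had been tied and released in 3 rounds, each with 5 min of ischemia followed by reperfusion for 5 min, before blood was taken from the left ventricle. Control rats (3 samples) gave blood in the same way without that step, and no sham operation is described, so the operation and the preconditioning cannot be told apart. Whether each sample was a separate rat is not stated, so the spread within a group may be technical.

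A miRNA hairpin is cut out of a longer transcript by Drosha and then by Dicer, and leaves a 5p and a 3p arm, of which usually 1 is kept by Argonaute and finds its mRNA targets through its seed, bases 2 to 8. Hairpins in 1 intron can share a transcript and still give unequal amounts of mature miRNA, since cutting, arm choice and decay act on each separately. Clcn5 itself encodes an endosomal chloride-proton exchanger best known from the kidney proximal tubule. Among the products, miR-532-5p has been described as a repressor of RUNX3 in human cancer cells, miR-362-5p of CYLD in human tumour cells, and miR-188 as a regulator of the choice between bone and fat cell fates in mouse marrow stroma.

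RefSeq places all 5 hairpins found for the cluster within Clcn5 on its own strand, in the order Mir532, Mir188, Mir362, Mir501 and Mir500. The sequences below are from RefSeq (build GRCr8, plus strand of chromosome X) and are not coordinates of the authors' build, rn6. They are shown because the arms and the near copies in them decide what the counts can tell apart. RefSeq matched 7 of the 8 measured members by name. In the mature sequences the capitals mark the seed.
miR-362-3p: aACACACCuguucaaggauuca
miR-532-5p: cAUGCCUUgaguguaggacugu
miR-532-3p: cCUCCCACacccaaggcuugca
miR-501-3p: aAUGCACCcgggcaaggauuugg
miR-501-5p: aAUCCUUUgucccuggguga
miR-500-3p: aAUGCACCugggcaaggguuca
miR-188-5p: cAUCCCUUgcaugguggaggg

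The cluster is not 1 seed family. Only miR-500-3p and miR-501-3p of the 7 share a seed, and no other mature rat miRNA in the RefSeq table has it. Their first 8 bases are identical, and over the 22 positions both have, they differ at 4 (U9C, G18A, C21U and A22G, written from miR-500-3p to miR-501-3p and counted from 1 at the 5′ end). How reads were divided between these near copies is not given in the sources used here, so their separate levels are uncertain. miR-362-3p and miR-500-3p have different seeds but differ at only 5 of 22 positions, and the division of their reads is not given either. The seed of miR-362-3p recurs in miR-329-3p, and that of miR-532-5p in miR-511-5p. In the hairpins of miR-532 (chrX:17919185-17919263) and miR-501 (chrX:17927189-17927272) both mature arms are in capitals, and the hairpins are shown because the balance of these arms is described below.
Mir532: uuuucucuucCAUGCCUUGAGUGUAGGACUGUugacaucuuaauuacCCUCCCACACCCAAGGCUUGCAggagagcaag
Mir501: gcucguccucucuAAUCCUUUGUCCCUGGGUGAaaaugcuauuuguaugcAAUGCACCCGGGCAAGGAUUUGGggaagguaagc

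Levels are the authors' normalised counts, whose scale is a common library size of 265919 counts. The whole counts behind them could be recovered and are given where they are low. The control libraries held 111048 to 152343 counts and the IPC libraries 319285 to 762927, so each IPC library was deeper than each control. For all 226 miRNAs abundant enough to test, limma called 0 (0%) at an adjusted p below 0.05 (24, or 10.6%, at an unadjusted p below 0.05; limma-voom on the recovered counts, 0 and 23). Without control replicate 2 limma called 29 higher and 9 lower.

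The cluster was a small part of the exosomal miRNAs. It took 0.105%, 0.127% and 0.0740% of all counts in control replicates 1, 2 and 3, and 0.144%, 0.217% and 0.150% in IPC replicates 1, 2 and 3. This share of total counts, taken before any scaling between libraries, was higher in each IPC library than in each control. In summed normalised counts, which are scaled, control replicate 1 and IPC replicate 3 were nearly equal and the groups overlapped. miR-532-5p alone made up 63.5% to 81.2% of the cluster's counts in the 6 libraries, so the summed share follows that miRNA. In such bulk samples more vesicles of a kind and more miRNA per vesicle cannot be told apart.

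**Figure D1:**
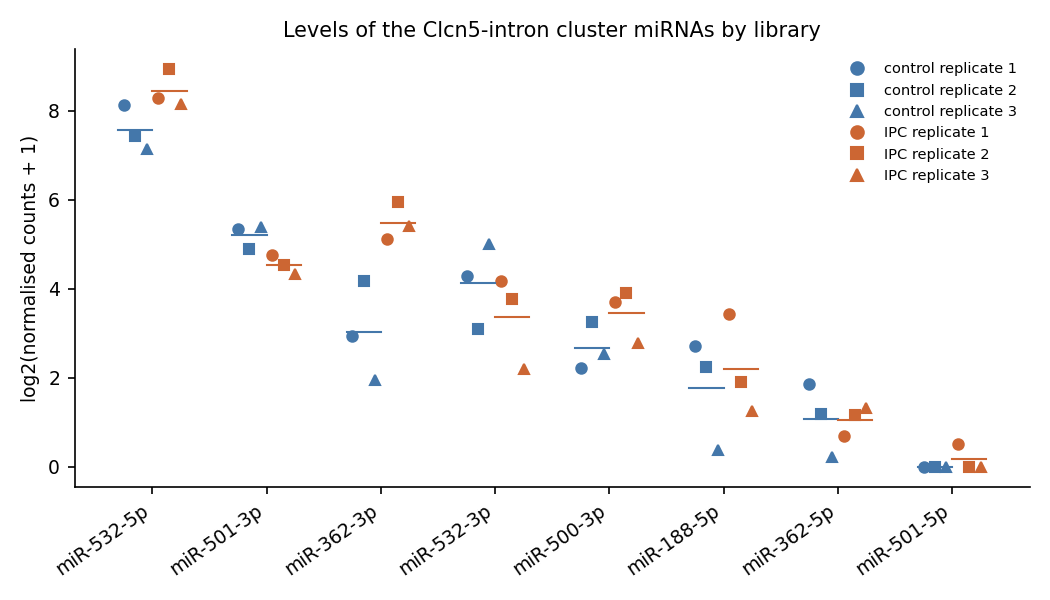
Levels of the 8 measured cluster miRNAs as log2(normalised counts + 1) on the vertical axis. Points are libraries, with controls in blue and IPC in orange and 1 marker shape per replicate number, and short bars are group means. miR-532-5p lies far above the others in every library, the groups are apart for miR-362-3p, and the IPC points of miR-501-3p lie below its control points.

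In the order of their mean levels over the 6 libraries, the members ran from rno-miR-532-5p (279 ± 123 normalised counts, SD, n = 6) through rno-miR-501-3p (29.5 ± 9.06), rno-miR-362-3p (27.1 ± 22.2), rno-miR-532-3p (15.1 ± 9.74) and rno-miR-500-3p (8.13 ± 4.12) to rno-miR-188-5p (3.90 ± 3.41), rno-miR-362-5p (1.23 ± 0.839) and rno-miR-501-5p (0.0694 ± 0.170). The 7 with a RefSeq sequence are 20 to 23 bases long, and no length correction was made. miR-532-5p was above the next member in 6 of 6 libraries, by 3.14 ± 0.96 (SD) on the log2 scale. The place of miR-362-3p depended on the group. miR-501-3p exceeded it in 3 of 3 controls and lay below it in 3 of 3 IPC libraries, so their order reversed between the groups. In the next pairs, miR-362-3p exceeded miR-532-3p in 4 of 6 libraries, and miR-532-3p exceeded miR-500-3p in 3. miR-500-3p was above miR-188-5p in 5 of 6 libraries, and miR-188-5p above miR-362-5p in 5. An exact sign-flip permutation test over the libraries, two-sided and adjusted over the 7 neighbouring pairs, gave adjusted p from 0.109 to 0.625. With 6 libraries its smallest unadjusted p is 0.0313, reached by the top and the bottom pair. The order was taken from these same values, so these p-values only describe which neighbours overlap. The pairs that hold miR-362-3p also depend on the contrast that picked it. The higher member led in every library in 2 of the 7 pairs, and in 4 of the 7 without control replicate 1. In the bottom pair, miR-362-5p over miR-501-5p, both members had 0 counts in control replicate 3. The lead there was 0.162 against 0 normalised counts, so it rests on the adjustment of the values and not on a count.

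miR-362-3p, the member for which the cluster was picked, was at 6.67, 17.2 and 2.87 normalised counts in control replicates 1, 2 and 3, and at 33.7, 60.5 and 41.5 in IPC replicates 1, 2 and 3. The groups did not overlap, and control replicate 2 was the highest control. The control values rest on 2, 14 and 1 counts and the IPC values on 91, 144 and 56. Its log2 fold change of IPC over control was 2.46 (SE 0.78), on the log2(value + 1) scale, or 5.52-fold. It was the 8th highest of the 226 tested. Without control replicate 2 the log2 fold change was 3.04 and without control replicate 3 it was 1.93. In pooled counts scaled for depth, of 17 in controls and 291 after IPC, the ratio was 4.20. The authors' deposited table gives a log2 fold change of 2.29.

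miR-362-5p, from the other arm of the same hairpin, had 1, 1 and 0 counts in control replicates 1, 2 and 3 and 2, 3 and 2 counts in IPC replicates 1, 2 and 3. After scaling for depth the IPC-to-control ratio of these counts was 0.858, with an exact 95% interval from 0.163 to 8.46 that covers counting error only. That interval holds both no difference and the ratio of its partner arm, so neither could be told from the other at this depth.

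miR-532-5p was at 281, 173 and 140 normalised counts in control replicates 1, 2 and 3, and at 311, 489 and 282 in IPC replicates 1, 2 and 3. All controls were below the IPC libraries, but the lowest IPC value and the highest control value were nearly equal. The log2 fold change was 0.88 (SE 0.66), and it lay between 0.64 and 1.16 with any 1 library left out. Under median-of-ratios scaling its groups overlapped.

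miR-532-3p, the other arm of that hairpin, was at 18.6, 7.55 and 31.3 normalised counts in control replicates 1, 2 and 3 and at 17.0, 12.6 and 3.57 in IPC replicates 1, 2 and 3. These values rest on 6, 6 and 14 counts in the controls and on 45, 30 and 5 in the IPC libraries. The groups overlapped, with control replicate 3 highest and IPC replicate 3 lowest. Its log2 fold change was -0.76 (SE 0.85), and it moved to -0.17 when IPC replicate 3 was left out, to -1.15 when IPC replicate 1 was, to -0.32 when control replicate 3 was and to -1.28 when control replicate 2 was.

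miR-501-3p was at 39.7, 28.5 and 41.1 normalised counts in control replicates 1, 2 and 3 and at 26.1, 22.2 and 19.2 in IPC replicates 1, 2 and 3. Its groups did not overlap either, and here every IPC library was the lower. The closest values were 28.5 in control replicate 2 and 26.1 in IPC replicate 1. The log2 fold change was -0.66 (SE 0.69), with values from -0.83 to -0.56 when 1 library was left out. This is the opposite sign to that of miR-362-3p, whose hairpin is the nearest upstream one of the cluster. In pooled counts scaled for depth the ratio was 0.676. When its normalised counts were summed with those of the near copy miR-500-3p, the groups overlapped, with IPC replicate 1 above control replicate 2.

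miR-500-3p, with the same seed as miR-501-3p, was below the abundance filter, at 3.65, 8.60 and 4.82 normalised counts in control replicates 1, 2 and 3 and 11.9, 13.9 and 5.82 in IPC replicates 1, 2 and 3. It overlapped between the groups, since IPC replicate 3 lay below control replicate 2. Its counts were 1, 7 and 2 against 32, 33 and 8, and the scaled ratio was 1.79 (exact 95% interval 0.920 to 3.89, counting error only). miR-500-3p made up 7.14%, 23.3% and 10.0% of the counts of this near-identical pair in control replicates 1, 2 and 3, and 31.4%, 38.4% and 23.5% in IPC replicates 1, 2 and 3. Each IPC library was above each control in that share, although IPC replicate 3 (exact 95% binomial interval 10.7% to 41.2%) and control replicate 2 (9.93% to 42.3%) were alike.

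miR-188-5p had 2, 3 and 0 counts in control replicates 1, 2 and 3 and 25, 7 and 2 in IPC replicates 1, 2 and 3. IPC replicate 1 held most of them, and after scaling IPC replicates 2 and 3, at 2.73 and 1.36 normalised counts, lay below control replicates 1 and 2, at 5.51 and 3.71. The scaled ratio was 1.67 (exact 95% interval 0.648 to 5.46, counting error only). miR-501-5p had a single count, in IPC replicate 1, the deepest library. Of the other arms of these hairpins, miR-500-5p and miR-188-3p had 0 of 2136736 counts, which allows up to 1.40 CPM.

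Taken by number, 4 of the 8 measured members passed the abundance filter. They split evenly, with 2 positive and 2 negative log2 fold changes and a median of 0.11, where 62.8% of the 226 tested were positive and the median was 0.38. The IPC libraries were all above the controls for 2 of the 4 (12.4% of all tested) and below for 1 of the 4 (1.33% of all tested). Because the contrast was used to pick the cluster, nothing is read from these counts.

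**Figure D2:**
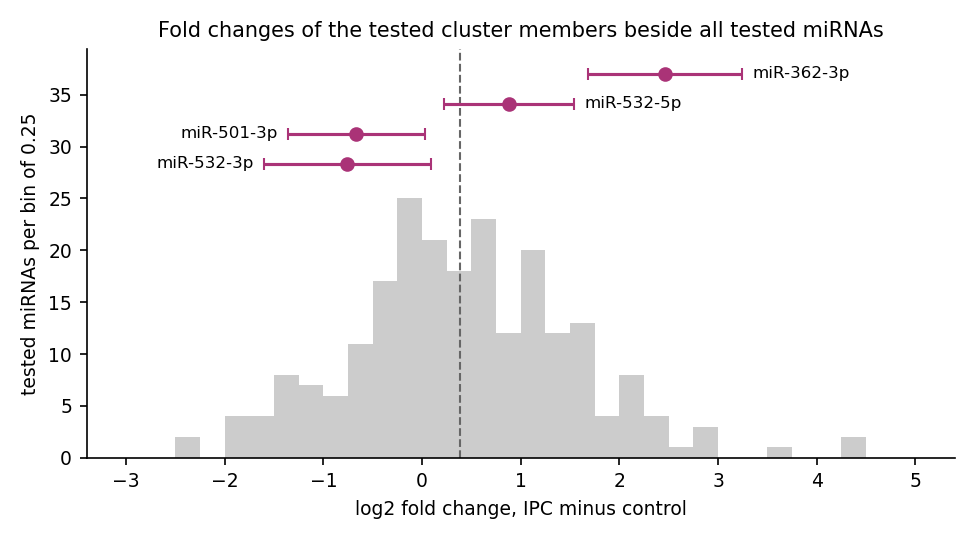
Histogram of the log2 fold changes (IPC minus control) of the 226 tested miRNAs, in bins of 0.25, with their median of 0.38 as a dashed line. The 4 tested cluster members are drawn above it as points with bars of 1 SE, from -0.76 for miR-532-3p to 2.46 for miR-362-3p.

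Whether the other members follow miR-362-3p was described from the order of the libraries. Of the 15 pairs of libraries, miR-532-5p ordered 13 as miR-362-3p did, miR-532-3p 3 and miR-501-3p 1. Among all 225 other tested miRNAs the median was 9. Between-group pairs weigh on that number, and of the 6 pairs within a group miR-532-5p matched 4, miR-532-3p 1 and miR-501-3p 1, beside a median of 3. The untested miR-500-3p matched 12 of 15 and 4 of 6. Over all 15 pairs, then, miR-532-5p and miR-500-3p were ordered mostly like miR-362-3p, and miR-501-3p and miR-532-3p mostly against it. Of these pairs 9 are between groups, on the contrast that picked miR-362-3p. Within groups, 4 of 6 was close to the median of 3, and the control order of miR-362-3p rests on 2, 14 and 1 counts.

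By distance, miR-532-5p was the nearest of the tested members, and miR-532-3p and not miR-501-3p was the farthest. This distance spans both groups, so it includes the contrast that picked miR-362-3p and is no separate support for the pair orders. The root mean square difference from the profile of miR-362-3p, on log2 values centred on their mean over 6 libraries, was 1.03 for miR-532-5p, 1.78 for miR-501-3p and 2.12 for miR-532-3p, with a median of 1.41 over all 225. These rank 56, 161 and 192 among the 225. The 5 nearest profiles belonged to no cluster member. They were miR-872-3p (0.25), miR-101b-3p (0.26), miR-872-5p (0.50), miR-133b-3p (0.52) and miR-133a-3p (0.53). Each ordered 15 of the 15 pairs as miR-362-3p did, but they were picked by likeness in these same libraries. Outside the 5, miR-106b-5p and miR-1839-5p ordered 15 of 15 too. The nearest, miR-872-3p, had 1, 4 and 0 counts in control replicates 1, 2 and 3. miR-133a-3p and miR-133b-3p are miRNAs of heart and skeletal muscle, and miR-101b-3p belongs to a family known to target Ezh2. For scale, miR-101b-3p was at 92.1, 202 and 28.2 normalised counts in control replicates 1, 2 and 3 and at 268, 517 and 426 in IPC replicates 1, 2 and 3. Its control replicate 2 was likewise the highest control.

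**Figure D3:**
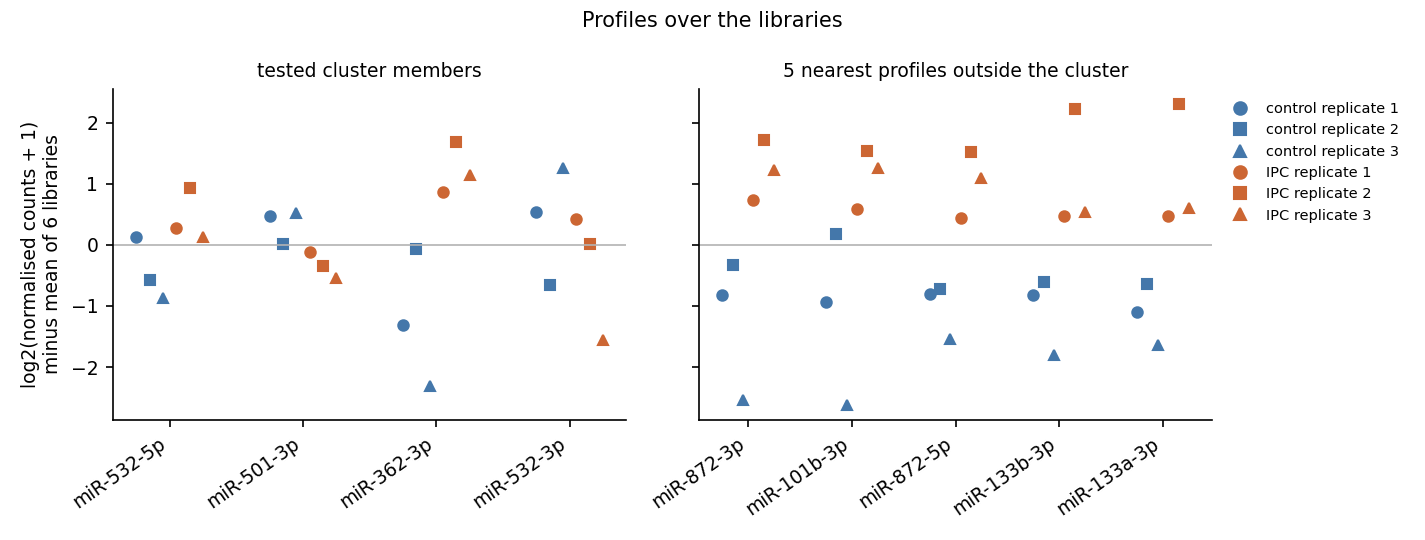
Profiles of the 4 tested cluster members (left) and of the 5 miRNAs outside the cluster nearest to miR-362-3p (right), as log2(normalised counts + 1) minus the mean of the 6 libraries. Points are libraries, controls in blue and IPC in orange. The nearest profiles have the libraries in the order of miR-362-3p, while miR-501-3p and miR-532-3p have their IPC points lower than their control points on average.

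Ratios within the cluster do not depend on the scaling between libraries. miR-362-3p made up 2.13%, 9.09% and 1.61% of the counts of miR-362-3p and miR-532-5p together in control replicates 1, 2 and 3, and 9.84%, 11.0% and 12.8% in IPC replicates 1, 2 and 3. Control replicate 2 (exact 95% binomial interval 5.06% to 14.8%) was close to the IPC libraries. Control replicates 1 and 3 were lower, but on 2 and 1 counts of miR-362-3p, with intervals of 0.259% to 7.48% and 0.0408% to 8.66%. The second of these overlaps that of IPC replicate 1 (7.99% to 11.9%). miR-501-3p made up 12.4%, 14.1% and 22.8% of its counts and those of miR-532-5p in control replicates 1, 2 and 3, and 7.74%, 4.34% and 6.39% in IPC replicates 1, 2 and 3. In this ratio all 3 controls, replicate 2 included, were above all 3 IPC libraries.

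**Figure D4:**
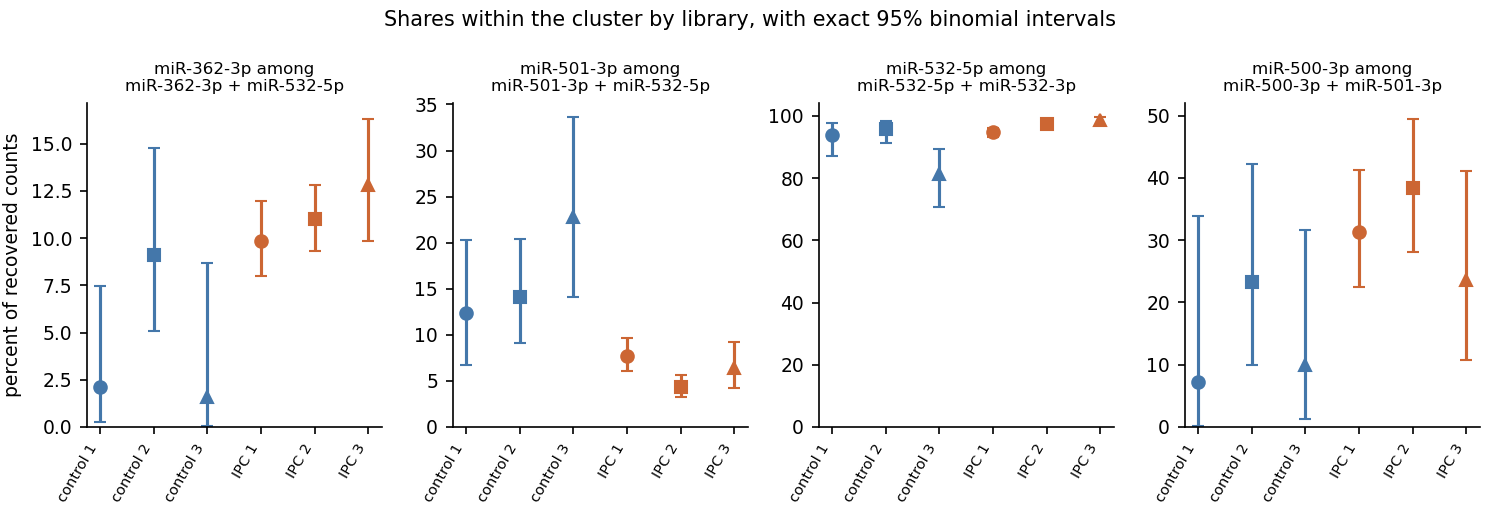
Shares of recovered counts within the cluster in each library, in percent, with exact 95% binomial intervals that cover counting error only. From left to right the panels give miR-362-3p beside miR-532-5p, miR-501-3p beside miR-532-5p, the 5p arm of miR-532 among both its arms, and miR-500-3p beside miR-501-3p. Control replicate 2 sits with the IPC libraries in the first panel (9.09%) and with the controls in the second (14.1%).

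The balance of arms within a hairpin was followed and tested over all 6 libraries for 3 hairpins. The test is read only for miR-532, the hairpin with counts on both arms in every library and without the miRNA that picked the cluster. The 5p arm dominated miR-532, with 2675 counts against 106, or 96.2% of both. The log2 ratio of 5p to 3p was 3.85, 4.35 and 2.12 in control replicates 1, 2 and 3 and 4.11, 5.17 and 5.95 in IPC replicates 1, 2 and 3, a mean of 4.26 ± 1.30 (SD, n = 6; exact sign-flip permutation test, two-sided, p = 0.0313 and, adjusted over 3 hairpins, 0.0313, as low as 6 libraries can give). The adjusted p equals the unadjusted p only because all 3 hairpins gave the lowest p possible. The 5p arm of miR-532 was the higher in 6 of 6 libraries, and least so in control replicate 3. The 3p arm was the higher in miR-362 (308 counts against 9) and miR-501 (203 against 1), each in 6 of 6 libraries. For miR-362, 291 of the 308 counts were in IPC libraries. In control replicates 1, 2 and 3 its 3p and 5p arms had 2 and 1, 14 and 1, and 1 and 0 counts. For miR-362 the mean log2 ratio of 5p to 3p was -1.94 ± 0.98 in controls and -4.44 ± 0.35 in IPC libraries (SD, n = 3 each). For miR-501 it was -5.21 ± 0.28 and -4.38 ± 0.14, with the 5p arm at 0 counts in 5 of 6 libraries. These sizes depend on the value added before the logarithm, and no test is read for miR-362 or miR-501. With 0.5 added in place of 1 the mean over 6 libraries was -3.56 for miR-362 and -5.71 for miR-501, and with 5 added it was -2.01 and -2.73.

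Other X-linked miRNAs served as a comparison by chromosome. Of 101 listed miRNAs 27 were tested, 18 with positive and 9 with negative log2 fold changes and a median of 0.88. Over all 226 tested, 62.8% were positive and the median was 0.38. The IPC libraries were all above the controls for 2 of these 27 (12.4% of all tested) and all below for 0 (1.33% of all tested). The most abundant were miR-92a-3p, with 8004 ± 3378 normalised counts in the IPC group against 4137 ± 3139 in the control group (mean ± SD, n = 3), and let-7f-5p, at 1983 ± 2257 and 855 ± 837. Both have overlapping groups. Some of these names, miR-92a-3p and let-7f-5p among them, also have a hairpin on another chromosome, and the 23 without one had a median of 0.81.

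Markers of other cells were summed beside these values. Summed over 4 of 4 listed platelet and leukocyte miRNAs, the level was 1327 to 1969 normalised counts in controls and 3034 to 4833 in IPC libraries. Within that list the log2 fold changes were 1.14 (SE 0.57) for miR-142-5p and 1.78 (SE 0.72) for miR-223-3p, while miR-142-3p was at -0.025 (SE 0.67) and miR-150-5p at 0.43 (SE 0.66). Over 6 of 6 muscle miRNAs it was 643 to 3446 and 4049 to 23396, and all 6 had positive log2 fold changes. For 4 of 4 red-cell miRNAs the ranges were 9509 to 23021 and 12423 to 16025. That sum is mostly miR-486, with a log2 fold change of 0.11 (SE 0.59), beside -0.69 (SE 0.60) for miR-451-5p. The level of miR-122-5p of hepatocytes was at 2696 to 3638 and 999.5 to 2968. No listed marker had 0 counts over all 6 libraries, but miR-144-5p of the red-cell list had 0 in control replicate 1. Their part in the levels of the cluster, and that of library depth, was not tested.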

How the data were processed

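Per the labels' protocols, 1 µg of RNA per sample entered each small RNA library, read as single-end 50 bp reads. FastQC, BWA, edgeR and rn6 are named, without roles, in the submitters' processing notes. Per the file headers, the deposited table gives a normalised signal per library for 763 miRNAs, a p-value without stated adjustment, and a log2 fold change. The signal follows counts moved by negative binomial quantile adjustment (dispersion 0.503) to a common library size, a form worked out from the deposited values. Inverting it gave 4578 of 4578 values within 0.01 of a whole count. Values listed at 0 were set to 0 counts, so those could not miss a whole count. The inversion was tested on simulated data.

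Tests ran in limma 3.58.1 (R 4.3.3; trended, robust) on log2(value + 1), with group as the only term and Benjamini-Hochberg adjustment over 226 miRNAs that had 34.9 CPM (counts scaled to effective library size) in 3 libraries and 15 counts in all. miR-362-3p passed this filter in all IPC libraries and in only 1 control. Python 3.11.15, numpy 2.4.6 and scipy 1.17.1 gave the permutation tests and intervals, which cover counting error only because reads carry no molecular identifiers. Alternatives changed the pseudocount (0.5, 5), filter, scaling, count model, replicate block and library set. Named miRNAs were the members, their other arms, the 5 nearest profiles and the 2 most abundant other X-linked miRNAs. Members, lists and this rule were chosen with earlier results of these data known.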

Additional observations from a re-analysis of the deposited data

How the results depend on the processing

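Leaving out 1 library gave 0 to 38 calls over all miRNAs, with the 38 without control replicate 2. The count of calls was 3 with no filter on low values (480 tested) and 2 with the replicate block. The labels do not say whether the replicate numbers pair the libraries. Same-numbered libraries had correlations of 0.13, -0.18 and -0.51 between their deviations from the group means over 226 miRNAs. With 3 libraries per group these deviations depend on each other, so the correlations cannot decide it. Members with all IPC libraries above all controls were 2, and 1 under median-of-ratios scaling, which shifts the median log2 fold change of all miRNAs by -0.24. It was 2 with any 1 library left out. Positive log2 fold changes were 2 of 4 (62.8% of the 226 tested), and 5 of 8 with no filter. Those 5 include miR-501-5p, which had 1 count. The log2 fold changes of the 4 tested members kept their sign under every alternative run, at 1.93 to 3.04 for miR-362-3p, 0.63 to 1.16 for miR-532-5p, -1.28 to -0.17 for miR-532-3p and -0.91 to -0.56 for miR-501-3p. With 1 library left out the mean log2 arm ratios were -3.61 to -2.87 for miR-362, 3.92 to 4.69 for miR-532 and -4.90 to -4.67 for miR-501, where 5 libraries allow no p below 0.0625. With 0.5 or 5 added in place of 1 they were -3.56 and -2.01 for miR-362, 4.33 and 3.86 for miR-532 and -5.71 and -2.73 for miR-501. Pairs of neighbouring members ordered alike in every library were 2 of 7, and 2 to 4 with 1 library left out, the 4 without control replicate 1. The bottom pair, miR-362-5p over miR-501-5p, had 0 counts of both members in control replicate 3. Low counts limit miR-362-5p, miR-188-5p and miR-501-5p in both groups, and miR-362-3p and miR-500-3p most in the controls. They also limit miR-532-3p in the controls and in IPC replicate 3.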
